A study of Homo sapiens with 16 samples.

Results

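The genes examined were the 3 voltage-dependent anion channels VDAC1, VDAC2 and VDAC3, the 2 catalytic subunits of AMPK, PRKAA1 and PRKAA2, and 5 genes of the mTORC1 pathway, MTOR, RPTOR, RHEB, TSC1 and DDIT4. They were matched by symbol to the Ensembl identifiers of the count files, and all 10 were found among 54127 identifiers. VDAC1 has been reported as a binding protein of itraconazole, and the AMPK and mTORC1 genes were taken with it by name. RNA was sequenced from HT55 and SW948, which are colorectal cancer cell lines grown in adherent culture with foetal bovine serum and antibiotics. The cells received itraconazole at 5 µM or its solvent, DMSO, and were sampled at day 6. The 4 groups were HT55 DMSO, HT55 itraconazole, SW948 DMSO and SW948 itraconazole, with 4 libraries in each and 16 in all. The study's methods describe its experiments as biological quadruplicates. Each line is 1 cancer cell line, so a difference between the lines is a difference between 2 cultures of different origin.

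VDAC proteins form the pores through which ATP, ADP and other small metabolites cross the mitochondrial outer membrane. AMPK is the kinase that senses a low cellular energy charge and restrains ATP-consuming synthesis. mTORC1 is the growth kinase at the lysosomal surface that is switched on by the small GTPase RHEB when amino acids are present, and AMPK restrains it through the TSC complex and through its subunit raptor. Itraconazole is an antifungal azole that is also known to disturb cholesterol handling and mTOR signaling in human cells. The comparison of treated with control libraries asks how the transcripts of this axis stood after itraconazole in each line. Transcript counts do not measure AMPK or mTORC1 activity, which is set largely by phosphorylation.

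Gene counts ran from 8269406 to 11110814 per library, and between 22.0% and 27.9% of reads had more than 1 alignment and were counted for no gene. All 8 epithelial markers examined had counts in every library, and their summed level was 8241 to 8541 counts per 1000000 gene counts (CPM) in HT55 DMSO, 9182 to 9733 in HT55 itraconazole, 5256 to 5563 in SW948 DMSO and 7372 to 9639 in SW948 itraconazole. Of 10 markers of other cell types, PTPRC, CD3E, VWF, COL1A2, COL3A1 and DCN had at most 5 counts in any library. The summed level of these 10 markers was 29.5 to 34.1 CPM in HT55 DMSO, 23.8 to 64.4 in HT55 itraconazole, 20.4 to 26.8 in SW948 DMSO and 120 to 125 in SW948 itraconazole, and most of it was CD68, a lysosomal protein of macrophages and other cells. Within the treated groups 2 libraries stood closer to their controls than the others. On the first principal component of HT55, treated replicate 3 scored 15.9 against 36.0 to 51.0 for the other treated libraries and -37.6 to -35.2 for the controls. On that of SW948, treated replicate 1 scored 50.3 against 63.0 to 76.2 for the other treated libraries and -66.1 to -64.1 for the controls. The share of counts on mitochondrial genes was 2.11% to 2.19% in HT55 DMSO and 2.65% to 3.06% in HT55 itraconazole, and 1.06% to 1.48% in SW948 DMSO and 2.05% to 2.97% in SW948 itraconazole. The cause of these shifts, and any part of the marker levels in the results, was not tested. One alternative fit left out the mitochondrial genes and the 20 genes with the most counts. There, 6 of 10 tested members changed in HT55 and 7 of 9 in SW948 (edgeR adjusted p under 0.05), as in the main fit. Fits without each single library are given below.

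Stretches of promoter sequence are shown for VDAC1, VDAC2 and RHEB, as members that rose together, and for PRKAA2, which had few counts in SW948. The windows come from RefSeq (GRCh38.p14) and run from 250 bases before to 50 bases after a transcript start. Windows of 9 genes were in the table, VDAC3 was not, and each window matched GRCh37 at exactly 1 place. Capitals mark 3 kinds of match on either strand. These are the GC box read by Sp1 proteins, GGGCGG, of which neighboring copies can overlap, the CCAAT box read by NF-Y, and the E-box form read by MYC and TFEB proteins, CACGTG. The first line below gives the 250 bases before the canonical start of VDAC1, and the second line those before PRKAA2. The other lines give 30 bases around a motif of VDAC2 and RHEB.
VDAC1 (chr5:133340667-133340916, minus strand): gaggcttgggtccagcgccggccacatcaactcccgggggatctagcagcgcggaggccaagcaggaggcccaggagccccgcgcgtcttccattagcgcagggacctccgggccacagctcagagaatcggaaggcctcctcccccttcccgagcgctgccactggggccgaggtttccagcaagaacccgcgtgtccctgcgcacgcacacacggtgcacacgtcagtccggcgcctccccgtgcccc
PRKAA2 (chr1:57110737-57110986, plus strand): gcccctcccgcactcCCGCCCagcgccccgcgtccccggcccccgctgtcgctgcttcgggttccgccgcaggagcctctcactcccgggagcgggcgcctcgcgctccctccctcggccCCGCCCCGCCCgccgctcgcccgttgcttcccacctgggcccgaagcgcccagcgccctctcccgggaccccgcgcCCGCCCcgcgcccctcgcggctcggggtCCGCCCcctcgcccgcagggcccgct
VDAC2 (chr10:76970442-76970471, plus strand): gcgctgtcggtcCACGTGgccgctctggag
RHEB (chr7:151217016-151217045, minus strand): gtgcaggagctgtCCAATcggcgctcgggg

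The window at the canonical start of VDAC1 held none of these letters, whereas a second RefSeq start 207 bases downstream had 4 GC boxes in its window. PRKAA2 had 5 GC boxes. The VDAC2 window held 2 GC boxes and the E-box shown, which ends 94 bases before the start, and the RHEB window held 4 GC boxes and 2 CCAAT boxes, of which the one shown ends 46 bases before the start. Of the 35116 RefSeq windows of the same length, 45.0% held GGGCGG, 34.6% CCAAT and 7.26% CACGTG. GCGCATGC, an NRF1-type sequence found in 3.05% of windows, and TCACNCCAC, a form of the sterol regulatory element found in 1.13%, matched no window of the 9 genes. As the canonical window of VDAC1 held none of the motifs searched, none could be common to the canonical windows of VDAC1, VDAC2 and RHEB. These genes were picked for their increases, described below, so the search cannot decide whether they share an element. The windows of the other RefSeq starts of VDAC1 held 4, 2 and 1 GC boxes. Which start of VDAC1 these cells used was not tested. These matches describe letters and not occupied sites.

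Among the 3 channel genes, VDAC1 and VDAC2 rose in both lines and VDAC3 fell in both. VDAC1 rose 1.74-fold in HT55 and 2.40-fold in SW948, VDAC2 rose 1.82-fold and 2.61-fold, and VDAC3 fell 1.25-fold and 1.86-fold. Levels are given in CPM scaled by TMM over the 16 libraries, and changes are log2 fold changes with the standard error (SE) from edgeR's quasi-likelihood test, fitted in each line on 8 libraries. A change passed when its Benjamini-Hochberg adjusted p was under 0.05 over all genes tested. In whole cultures, fewer cells that express a gene and less RNA per cell cannot be told apart.

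**Figure D1:**
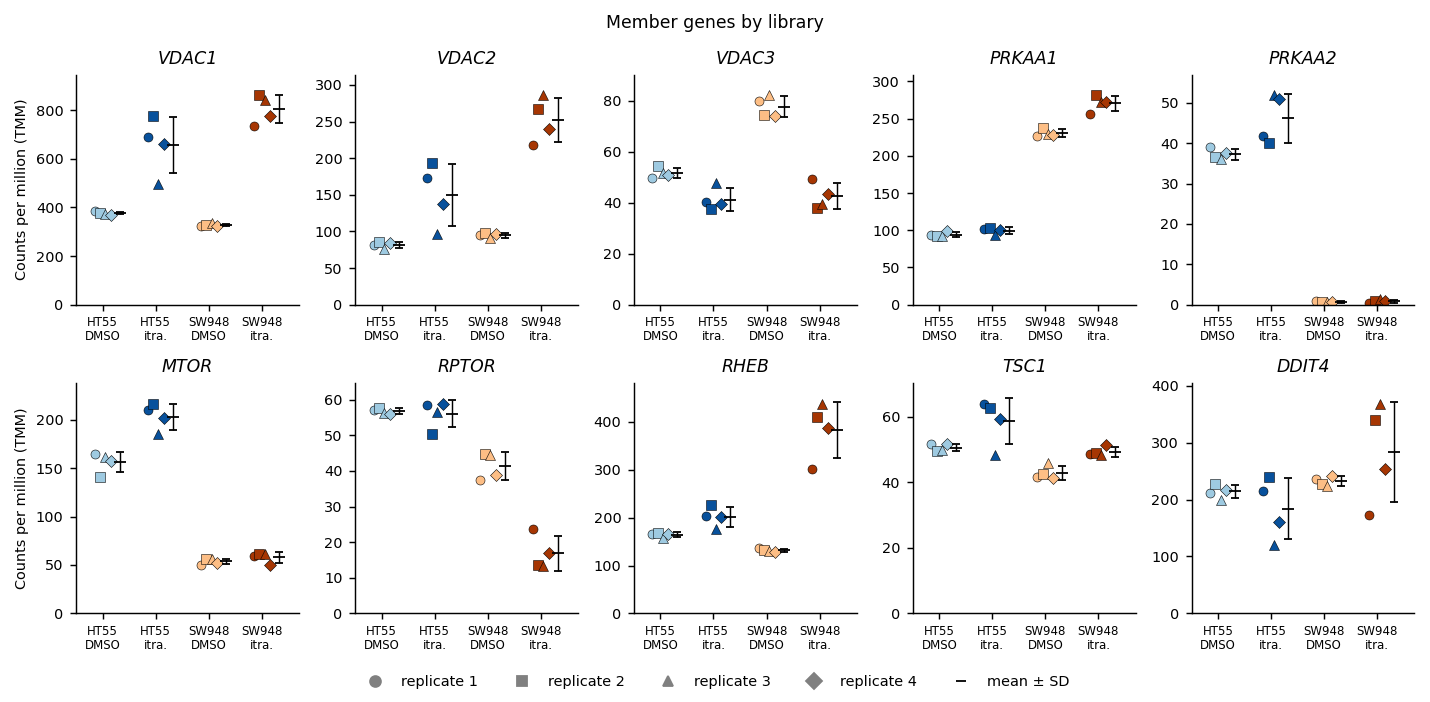
Level of each of the 10 genes in every library, as TMM-scaled CPM on linear axes that start at 0, with 1 point per library shaped by replicate and the mean ± SD beside each group of 4. VDAC1, VDAC2 and RHEB stood highest in SW948 itraconazole, VDAC3 and RPTOR fell in that group, and PRKAA2 was between 0.400 and 1.40 CPM in all 8 SW948 libraries.

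VDAC1 (ENSG00000213585, GRCh37 chromosome 5, 133307562 to 133340666, minus strand) codes for the most abundant channel of the outer membrane. Its level was 383, 379, 375 and 370 CPM in the HT55 DMSO libraries and 690, 774, 498 and 663 CPM in the HT55 itraconazole libraries, in the order of replicates 1 to 4. In SW948 it was 325, 327, 336 and 324 CPM with DMSO and 736, 861, 841 and 777 CPM with itraconazole. Every treated library of each line lay above every control, and the treated HT55 library nearest to the controls was replicate 3. Separation of this kind, upward or downward, was common. It was seen in HT55 at 5994 genes (49.4% of 12133) and in SW948 at 9346 (74.7% of 12505). The log2 fold change of VDAC1 was 0.80 (SE 0.11, edgeR adjusted p = 0.000243) in HT55 and 1.26 (SE 0.07, adjusted p = 1.02e-09) in SW948. Without replicate 3 of HT55 itraconazole it was 0.92 in HT55.

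VDAC2 (ENSG00000165637, chromosome 10, 76969912 to 76991206, plus strand) is the channel known to hold the apoptosis protein BAK at the outer membrane. The HT55 DMSO libraries had 81.7, 84.9, 76.3 and 84.5 CPM and the HT55 itraconazole libraries 173, 193, 96.0 and 137 CPM. The SW948 DMSO libraries had 94.9, 97.7, 90.5 and 96.0 CPM and the SW948 itraconazole libraries 217, 267, 286 and 240 CPM. The groups of each line did not overlap, and replicate 3 of HT55 itraconazole was again the treated library nearest to the controls. The log2 fold change was 0.87 (SE 0.17, edgeR adjusted p = 0.00198) in HT55, where it was 1.05 without that library, and 1.38 (SE 0.08, adjusted p = 3.00e-09) in SW948.

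VDAC3 (ENSG00000078668, chromosome 8, 42249142 to 42263455, plus strand) codes for the third isoform, known for its redox-sensitive cysteines. It had 49.8, 54.4, 51.5 and 50.8 CPM in HT55 DMSO and 40.2, 37.5, 47.6 and 39.6 CPM in HT55 itraconazole. In SW948 it had 80.0, 74.4, 82.1 and 74.1 CPM with DMSO and 49.4, 37.9, 39.4 and 43.5 CPM with itraconazole. All treated libraries lay below all controls of their line, in HT55 by a narrow margin through replicate 3. The log2 fold change was -0.33 (SE 0.09, edgeR adjusted p = 0.00872) in HT55 and -0.90 (SE 0.08, adjusted p = 2.47e-07) in SW948. These directions of VDAC1, VDAC2 and VDAC3 held under plain library totals as well, and all 3 calls held in both lines without any 1 library.

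**Figure D2:**
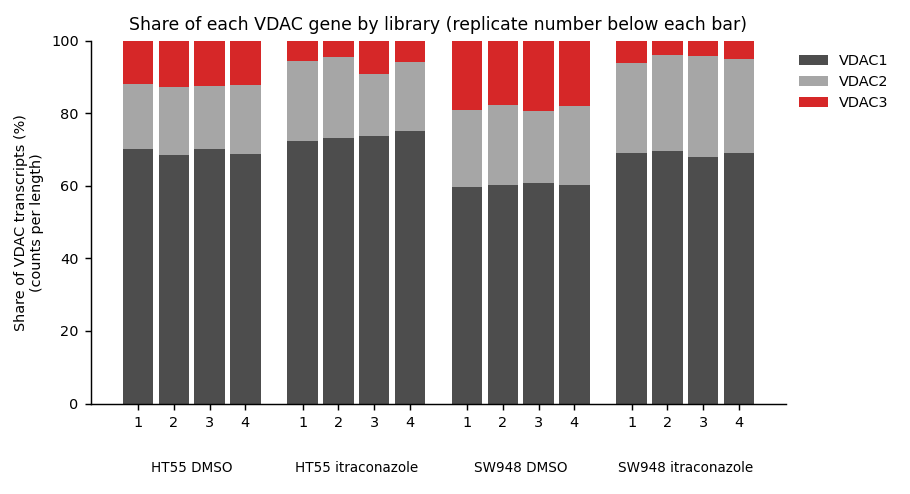
Share of VDAC1, VDAC2 and VDAC3 among the 3 VDAC genes in each library, as stacked bars in percent of counts per transcript length, with the replicate number under each bar. The VDAC3 share was 11.8% to 12.8% in HT55 DMSO and 4.60% to 9.13% in HT55 itraconazole, and 17.8% to 19.3% in SW948 DMSO and 3.98% to 6.02% in SW948 itraconazole.

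Shares and ratios of the VDAC genes within a library need no scaling between libraries, whereas the levels per kilobase and their sums below carry the TMM scaling. Per kilobase of canonical transcript, the level with DMSO was 205 CPM for VDAC1, 54.1 for VDAC2 and 36.4 for VDAC3 in HT55, and 178, 62.7 and 54.8 in SW948. VDAC1 thus made up 69.3% ± 0.857 (SD, n = 4) of VDAC counts per length in HT55 DMSO and 73.6% ± 1.17 in HT55 itraconazole, and 60.3% ± 0.459 and 68.9% ± 0.771 in the same groups of SW948. The share of VDAC3 went from 12.3% ± 0.414 to 6.26% ± 1.98 in HT55 and from 18.5% ± 0.773 to 4.78% ± 0.943 in SW948. The ratio of VDAC3 to VDAC1 lay between 0.168 and 0.186 in HT55 DMSO and between 0.0628 and 0.124 in HT55 itraconazole, and in SW948 between 0.295 and 0.320 and between 0.0571 and 0.0871. These ranges did not overlap in either line. The ratio of VDAC2 to VDAC1 overlapped between treatments in HT55, at 0.264 ± 0.0136 with DMSO and 0.274 ± 0.0359 with itraconazole, and was 0.352 ± 0.0164 and 0.382 ± 0.0226 in SW948, where the ranges also overlapped. The summed VDAC level per kilobase was 295 ± 4.39 CPM in HT55 DMSO and 296 ± 3.55 in SW948 DMSO, and 485 ± 87.5 and 634 ± 46.6 after itraconazole. These sums depend on the TMM factors, which were 1.02 to 1.03 in HT55 DMSO and 1.17 to 1.18 in SW948 DMSO. After itraconazole the factors were 0.868 to 0.970 in HT55 and 0.871 to 0.969 in SW948. Processed copies of VDAC1 and VDAC2 are scattered over the genome and reads that align to several places were dropped. The annotation held 11 copies of VDAC1 with 1 to 10 counts per library in all, 5 of VDAC2 with 0 to 10, and 3 of RHEB with 0 to 1.

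The AMPK catalytic genes differed between the lines far more than between treatments. PRKAA1 (ENSG00000132356, chromosome 5, 40759491 to 40798476, minus strand) codes for the α1 subunit and PRKAA2 (ENSG00000162409, chromosome 1, 57110987 to 57181008, plus strand) for the α2 subunit. PRKAA1 stood at 94.2 ± 3.64 CPM in HT55 DMSO and 231 ± 5.10 CPM in SW948 DMSO (SD, n = 4), a log2 difference of 1.29 (SE 0.06, edgeR adjusted p = 1.09e-13). PRKAA2 had 39.2, 36.5, 36.0 and 37.4 CPM in HT55 DMSO, from 316 to 362 counts per library. In the SW948 DMSO libraries it had 0.962, 0.567, 0.607 and 0.693 CPM, from 6 to 12 counts. The log2 difference between the untreated lines was -5.68 (SE 0.18), and PRKAA2 entered that fit only through its HT55 libraries. The ratio of PRKAA2 to PRKAA1 per length was 0.222 ± 0.0106 in HT55 DMSO and 0.00173 ± 0.000462 in SW948 DMSO.

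After itraconazole PRKAA1 had 99.7 ± 4.42 CPM in HT55, which overlapped the controls (log2 fold change 0.08, SE 0.06, edgeR adjusted p = 0.297). In SW948 the treated libraries had 257, 281, 272 and 272 CPM against 227, 238, 230 and 228 CPM, a log2 change of 0.20 (SE 0.06, adjusted p = 0.00562). With plain library totals in place of TMM, PRKAA1 passed as lower in SW948 instead (-0.13, edgeR adjusted p = 0.0254). PRKAA2 rose in HT55, to 41.9, 40.1, 51.8 and 50.9 CPM, with a log2 change of 0.31 (SE 0.10, edgeR adjusted p = 0.0212). This call was lost under plain library totals and without HT55 DMSO replicate 3 (adjusted p = 0.0509) or HT55 itraconazole replicate 4 (adjusted p = 0.0602). In SW948 itraconazole PRKAA2 had 4 to 11 counts per library, and it did not reach the count filter of that line. A change of PRKAA2 in SW948 was not detectable at this depth.

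MTOR and RPTOR code for the kinase of mTORC1 and for raptor, the subunit that binds its substrates. In the main fits MTOR passed in HT55 only and RPTOR in SW948 only. For MTOR this shows a difference between the lines only weakly. Its interaction of line and treatment passed narrowly (-0.27, edgeR adjusted p = 0.0473) and was lost in 10 of the 16 fits that left out 1 library. MTOR (ENSG00000198793, chromosome 1, 11166592 to 11322613, minus strand) had 164, 141, 162 and 157 CPM in HT55 DMSO and 210, 216, 185 and 202 CPM in HT55 itraconazole. All 4 treated libraries lay above the controls, with a log2 change of 0.37 (SE 0.07, edgeR adjusted p = 0.00145). The SW948 libraries had 50.4, 56.1, 56.3 and 51.9 CPM with DMSO and 59.2, 61.6, 61.6 and 49.8 CPM with itraconazole. These groups overlapped, and the log2 fold change was 0.08 (SE 0.08, adjusted p = 0.367), which plain library totals turned to a value that passed as lower (-0.25, edgeR adjusted p = 0.0125).

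RPTOR (ENSG00000141564, chromosome 17, 78518619 to 78940171, plus strand) had 57.2, 57.8, 56.2 and 55.9 CPM in HT55 DMSO and 58.4, 50.5, 56.6 and 58.7 CPM in HT55 itraconazole, groups that overlapped (log2 fold change -0.02, SE 0.07, edgeR adjusted p = 0.787). The SW948 DMSO libraries had 37.4, 44.7, 44.6 and 38.7 CPM and the SW948 itraconazole libraries 23.8, 13.7, 13.2 and 17.1 CPM. Every treated SW948 library lay below every control, and treated replicate 1 was the nearest to them. The log2 fold change was -1.30 (SE 0.15, adjusted p = 1.92e-06), and -1.51 without that library. The ratio of RPTOR to MTOR per length ran from 0.945 to 1.02 in SW948 DMSO and from 0.274 to 0.513 in SW948 itraconazole. In HT55 it ran from 0.443 to 0.522 and from 0.298 to 0.390, so the ranges were apart in that line too.

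RHEB (ENSG00000106615, chromosome 7, 151163098 to 151217206, minus strand), the GTPase that activates mTORC1, showed the strongest rise of the 10 genes in SW948. Its levels were 137, 132, 130 and 129 CPM in SW948 DMSO and 301, 409, 437 and 387 CPM in SW948 itraconazole. The treated libraries were all above the controls, replicate 1 least so, and the log2 fold change was 1.51 (SE 0.10, edgeR adjusted p = 6.14e-09). In HT55 the levels were 166, 169, 158 and 165 CPM with DMSO and 203, 227, 176 and 201 CPM with itraconazole. The groups did not overlap there either, and the log2 fold change was 0.29 (SE 0.08, adjusted p = 0.00873), a call that was lost under plain library totals (0.12, adjusted p = 0.110).

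TSC1 (ENSG00000165699, chromosome 9, 135766735 to 135822261, minus strand) codes for hamartin, a subunit of the complex that turns RHEB off. It had 50.6 ± 1.12 CPM in HT55 DMSO and 63.8, 62.6, 48.4 and 59.5 CPM in HT55 itraconazole, where replicate 3 lay below the controls. The HT55 log2 change of 0.20 (SE 0.09) did not pass the test (edgeR adjusted p = 0.0727), and was 0.30 (adjusted p = 0.000914) without that library. In SW948 it had 42.8 ± 2.06 CPM with DMSO and 49.3 ± 1.46 with itraconazole, a log2 change of 0.17 (SE 0.07, adjusted p = 0.0280). This call was lost when any of 4 single libraries was left out, SW948 DMSO replicates 1, 2 and 4 or SW948 itraconazole replicate 4 (adjusted p from 0.0569 to 0.0934). It was also lost with no filter on low counts (edgeR adjusted p = 0.179) and with at least 10 counts required in every library (0.13, adjusted p = 0.0815), and plain library totals gave -0.16. The ratio of RHEB to TSC1 per length was 13.7 ± 0.424 and 14.5 ± 0.918 in HT55, and went from 13.0 ± 0.790 to 32.7 ± 5.18 in SW948.

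DDIT4 (ENSG00000168209, chromosome 10, 74033678 to 74035794, plus strand) codes for REDD1, a stress-induced inhibitor of mTORC1. It had 212, 228, 200 and 217 CPM in HT55 DMSO and 215, 239, 120 and 161 CPM in HT55 itraconazole. In SW948 it had 236, 227, 223 and 242 CPM with DMSO and 174, 340, 367 and 253 CPM with itraconazole. Treated libraries lay on both sides of the controls in SW948, with replicate 1 low and replicates 2 and 3 high, and 2 of the 4 treated HT55 libraries lay below the HT55 controls. The log2 fold change was -0.23 (SE 0.17, edgeR adjusted p = 0.291) in HT55 and 0.25 (SE 0.17, adjusted p = 0.177) in SW948. Without SW948 itraconazole replicate 1 it was 0.45 (edgeR adjusted p = 0.000493), and with all 8 libraries and no filter on low counts it was 0.23 and passed as well (adjusted p = 0.00464).

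**Figure D3:**
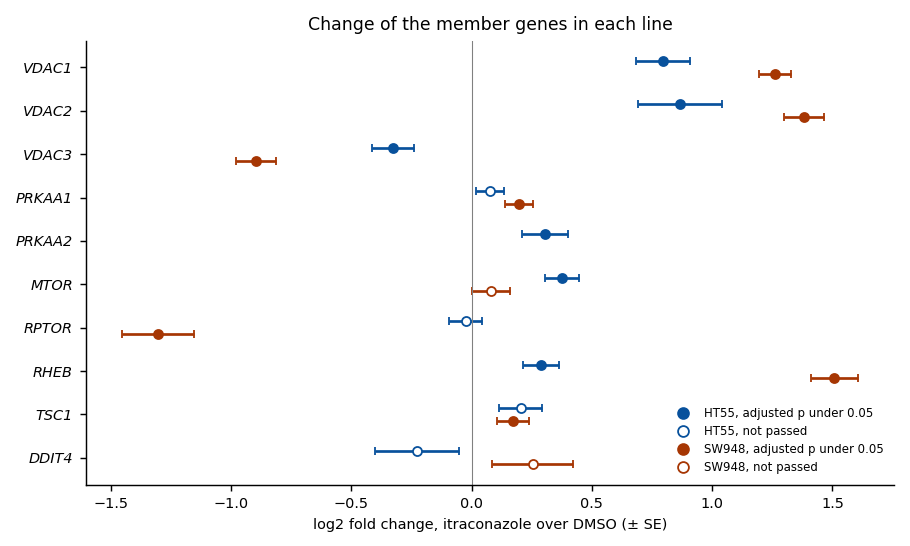
Log2 fold change of itraconazole over DMSO for the 10 genes in HT55 (blue) and SW948 (brown), with horizontal bars of 1 SE and filled points where the adjusted p was under 0.05. VDAC1, VDAC2 and RHEB lie to the right in both lines, VDAC3 lies to the left in both, RPTOR lies near 0 in HT55 and at -1.30 in SW948, and PRKAA2 has no point in SW948.

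In all, 6 of the 10 genes passed in HT55, 5 higher and 1 lower, where 54.0% of the 12133 genes tested passed (27.5% higher and 26.5% lower). In SW948 9 of the 10 genes were tested and 7 passed, 5 higher and 2 lower, where 80.2% of 12505 passed (38.9% higher and 41.3% lower). These shares lie near those of all genes, so the count of members that changed says nothing particular about them. With plain library totals in place of TMM, the median of all genes moved to -0.18 in HT55 and -0.35 in SW948, and the split became 3 higher and 2 lower in HT55 and 3 higher and 4 lower in SW948. Under that scaling PRKAA1 (-0.13), MTOR (-0.25), TSC1 (-0.16) and DDIT4 (-0.09) had negative log2 values in SW948, of which those of PRKAA1 and MTOR passed as lower, and all 4 were less negative than the median of all genes. With a minimum log2 change of 1, no member passed in HT55, and VDAC1, VDAC2, RHEB and RPTOR passed in SW948. Of all genes tested, 1169 of 12133 passed at that minimum in HT55 and 4001 of 12505 in SW948.

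The response differed between the lines for 6 of the 10 genes by the interaction of line and treatment in a fit of all 16 libraries, where 53.9% of 13249 genes passed. RHEB rose more in SW948 than in HT55 by 1.25 on the log2 scale (SE 0.13, edgeR adjusted p = 3.22e-07), and the interaction of RPTOR, which fell in SW948, was -1.25 (SE 0.18, adjusted p = 9.41e-06). VDAC3 had an interaction of -0.54 (SE 0.12, adjusted p = 0.00107), VDAC1 of 0.49 (SE 0.13, adjusted p = 0.00432) and VDAC2 of 0.54 (SE 0.20, adjusted p = 0.0283). MTOR, at -0.27 (SE 0.11), passed narrowly (adjusted p = 0.0473). The difference was not shown for PRKAA1 (0.15, adjusted p = 0.125), TSC1 (-0.00388, adjusted p = 0.987) or DDIT4 (0.51, adjusted p = 0.114), and PRKAA2 was too low in SW948 to bear on it. The DDIT4 interaction ran from 0.34 to 0.68 without 1 library and passed without HT55 itraconazole replicate 2 (edgeR adjusted p = 0.0324), without SW948 itraconazole replicate 1 (adjusted p = 0.0150) and with no filter on low counts (adjusted p = 0.000165). The VDAC2 call was lost in 6 of the 16 fits that left out 1 library and under plain library totals (0.36, adjusted p = 0.0876). The MTOR call was lost in 10 of the 16, with DESeq2 size factors (adjusted p = 0.0759), with no filter on low counts (adjusted p = 0.0988) and with the DESeq2 test (adjusted p = 0.0711).

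The untreated lines differed for 6 of the 9 genes other than PRKAA2, against 75.9% of 13249 genes. PRKAA1 and VDAC3 were higher in SW948 DMSO, by 1.29 and 0.59 on the log2 scale. MTOR was 2.91-fold lower there, and the log2 difference was -0.46 for RPTOR, -0.32 for RHEB and -0.24 for TSC1. For VDAC1 the log2 difference was -0.20 (edgeR adjusted p = 0.0634), for VDAC2 0.21 (adjusted p = 0.189) and for DDIT4 0.12 (adjusted p = 0.587). Under plain library totals, where the median of all genes stood at 0.20, the differences of RPTOR, RHEB and TSC1 no longer passed and that of VDAC2 did (0.41, edgeR adjusted p = 0.00572). VDAC2 also passed with no filter on low counts (adjusted p = 0.0267) and without HT55 itraconazole replicate 3 (adjusted p = 0.0338), and VDAC1 passed without HT55 itraconazole replicate 2 (adjusted p = 0.0377) or 3 (adjusted p = 0.00832). Ranked by mean level over the 4 groups, VDAC1 and VDAC2 were highest in SW948 itraconazole and next in HT55 itraconazole, 2 groups whose libraries overlapped for VDAC1 and were apart for VDAC2. MTOR ran in the order HT55 itraconazole, HT55 DMSO, SW948 itraconazole and SW948 DMSO, and its last pair overlapped. The control libraries of each line serve both its treatment comparison and the comparison of the untreated lines.

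The wider pathway was read from 10 lists with 117 genes, none of them among the 10 above, of which 114 were matched. In HT55 107 were tested, 45 rose and 23 fell, and in SW948 110 were tested, 52 rose and 37 fell. The shares that passed, 63.6% and 80.9%, stood beside 54.0% and 80.2% for all genes, and the list medians of 0.14 and 0.15 beside -0.02 and -0.02. With plain library totals the split was 27 higher and 33 lower in HT55 and 32 higher and 54 lower in SW948. Within single lists, of 3 to 17 genes each, 33.3% to 100% of the tested genes passed in HT55 and 56.2% to 100% in SW948. The counts of each list below are to be read beside the 54.0% and 80.2% of all genes, and no list was tested as a set. Genes are named below by a fixed rule, as the strongest rise and fall of each list and line among genes whose treated and control libraries did not overlap and whose mean log2 CPM was at least 3.

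**Figure D4:**
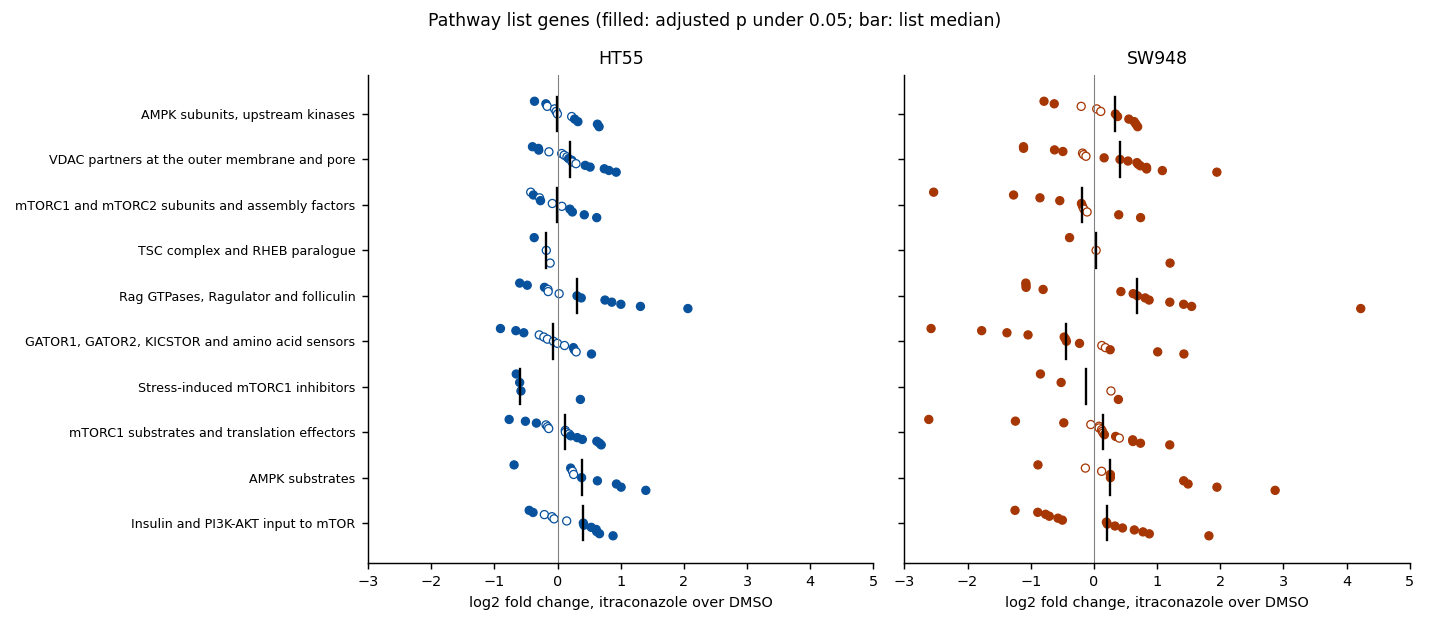
Log2 fold change of itraconazole over DMSO for each tested gene of the 10 pathway lists in HT55 (left) and SW948 (right), with filled points where the adjusted p was under 0.05 and a black bar at the median of each list. The list of Rag GTPases, Ragulator and folliculin has the highest median in SW948, 0.69, and the list of GATOR, KICSTOR and amino acid sensors the lowest, -0.43.

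Around AMPK, 4 of 11 tested subunits and upstream kinases rose in HT55 and 2 fell, and 6 rose and 2 fell in SW948. STRADB, the pseudokinase partner of the AMPK kinase LKB1, rose by 0.66 (SE 0.11) on the log2 scale in HT55 and fell by 0.63 in SW948, with an interaction of -1.26 (edgeR adjusted p = 3.94e-06). CAMKK1, a calcium-dependent kinase, fell in HT55 by 0.36, a call lost without any 1 of 5 libraries (adjusted p from 0.0513 to 0.0883). CAMKK2, which phosphorylates AMPK, fell in SW948 by 0.79, and MAP3K7, the kinase TAK1, rose there by 0.69. Of 9 tested AMPK substrates, 6 rose and 1 fell in each line. PFKFB2, which makes the activator of glycolytic phosphofructokinase, rose by 1.01 in HT55 and by 0.26 in SW948.

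In the list of VDAC partners at the mitochondrial outer membrane and the permeability pore, 7 of 16 tested rose and 3 fell in HT55, and 10 of 17 rose and 4 fell in SW948. The hexokinases HK1 and HK2, which dock on VDAC, rose in both lines. HK2 had the strongest rise of the list in HT55, from 36.2 ± 2.16 to 69.3 ± 19.6 CPM (log2 fold change 0.93, SE 0.19, edgeR adjusted p = 0.00198). HK1 had the strongest in SW948, from 42.3 ± 3.92 to 167 ± 12.9 CPM (log2 fold change 1.95, SE 0.08, adjusted p = 1.20e-10). TOMM40, the pore of the protein import channel in the outer membrane, fell by 1.11 in SW948, and HSPA9, the mitochondrial HSP70 that links VDAC to calcium release channels, fell by 0.40 in HT55. CKMT1A and CKMT1B are near-identical copies, and their values are uncertain.

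Of the 10 other subunits and assembly factors of mTORC1 and mTORC2, HT55 had 4 higher and 2 lower and SW948 had 2 higher and 6 lower. DEPTOR, an inhibitory subunit of both complexes, fell from 23.2 ± 2.23 to 4.01 ± 1.38 CPM in SW948, a log2 change of -2.54 (SE 0.18, edgeR adjusted p = 1.36e-08). RICTOR, the defining subunit of mTORC2, rose by 0.74 in that line. In HT55 PRR5L, an mTORC2 partner, rose by 0.62 and TTI1, an assembly factor of these kinases, fell by 0.27, a call lost without any 1 of 3 control libraries (adjusted p from 0.0620 to 0.0718). TSC2, the partner of TSC1, fell in both lines, by 0.37 in HT55 and 0.38 in SW948.

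The lysosomal branch held some of the widest changes. Of the 13 Rag GTPase, Ragulator and folliculin genes, 7 were higher and 3 lower with itraconazole in HT55, and 9 were higher and 4 lower in SW948. These were 76.9% of the list in HT55 and 100% in SW948, beside 54.0% and 80.2% of all genes tested. RRAGD, a Rag GTPase that carries the amino acid signal to mTORC1, went from 1.96 ± 0.246 to 37.8 ± 8.65 CPM in SW948, a log2 change of 4.22 (SE 0.20, edgeR adjusted p = 3.24e-10), while RRAGA, which pairs with it, fell by 1.07. FNIP2, a partner of folliculin, had the strongest rise in HT55 that met the rule, from 34.0 ± 3.59 to 84.7 ± 13.7 CPM (1.31, SE 0.12). RRAGD rose more in HT55, by 2.06 (SE 0.37, edgeR adjusted p = 0.00104), but its level there was below that of the rule. LAMTOR1, the membrane anchor of Ragulator, fell by 0.21 in HT55, a call lost in 6 of the 8 fits without 1 library, with DESeq2 size factors (adjusted p = 0.0504), with no filter on low counts (adjusted p = 0.0819) and with the DESeq2 test (adjusted p = 0.0758). Of 13 tested GATOR, KICSTOR and amino acid sensor genes, 3 were higher and 3 lower in HT55, against 3 higher and 8 lower in SW948. SEC13, shared by GATOR2 and the COPII coat, rose by 0.54 and 1.43 in HT55 and SW948, and ITFG2, a KICSTOR subunit, fell by 0.90 and 2.58.

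Of the 4 tested stress-induced inhibitors of mTORC1 besides DDIT4, HT55 had 1 higher and 3 lower and SW948 had 1 higher and 2 lower. TRIB3, a pseudokinase induced by amino acid shortage, fell in HT55 by 0.65 (SE 0.07), from 449 ± 15.1 to 286 ± 23.0 CPM. SESN3 rose there by 0.36, a call lost under plain library totals (0.20, edgeR adjusted p = 0.1001), and SESN2, a leucine-sensing sestrin, fell in SW948 by 0.85. Among the substrates and translation effectors of mTORC1, 6 of 15 tested rose and 3 fell in HT55, and 6 of 16 rose and 3 fell in SW948. EIF4EBP2, a repressor of cap-dependent translation, fell from 195 ± 12.9 to 32.5 ± 5.09 CPM in SW948 (log2 fold change -2.61, SE 0.10). In HT55 its log2 fold change was 0.12 (edgeR adjusted p = 0.199), and the interaction was -2.71 (adjusted p = 4.36e-11). EIF4B, a translation initiation factor, rose by 1.20 in SW948, and in HT55 LPIN1, a lipin phosphatase, rose by 0.69 and GRB10, an insulin receptor adaptor, fell by 0.77. On the insulin input, HT55 had 7 higher and 2 lower genes among 13 tested, and SW948 had 8 higher and 6 lower among 14. IRS2, an insulin receptor substrate, rose by 0.88 in each line, PIK3R1 fell by 0.45 in HT55 and INPP4B, a phosphoinositide phosphatase, fell by 1.25 in SW948.

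Over the 16 libraries, 9197 genes were compared with VDAC1 and DDIT4 by Pearson's r of log2 CPM, as a description. The points share treatment and line, so that r with VDAC1 follows the group means for the most part. DDIT4 passed in no main comparison of groups, and its treated libraries were widely spread (SD 53.7 CPM in HT55 and 88.1 CPM in SW948). Its r therefore also follows the spread within the treated groups. Nearest to VDAC1 were CHP1, a calcium-binding partner of sodium-proton exchangers (r = 0.996), NT5C3A, a pyrimidine nucleotidase (r = 0.993), and GABARAPL1, an ATG8-family protein of autophagosomes (r = 0.993). Their log2 changes in HT55 and SW948 were 1.09 and 1.63 for CHP1, 0.74 and 1.09 for NT5C3A, and 1.91 and 3.23 for GABARAPL1. Nearest to DDIT4 were DDIT3, the stress transcription factor CHOP (r = 0.901), PPP1R15A, the stress-induced phosphatase subunit GADD34 (r = 0.849), and ANXA2 (r = 0.837). Within the 8 libraries of each line, r of DDIT3 with DDIT4 was 0.919 in HT55 and 0.897 in SW948. For PPP1R15A with DDIT4 it was 0.976 and 0.768, and for ANXA2 with DDIT4 0.523 and 0.975. For CHP1 with VDAC1 it was 0.996 and 0.997. No gene that overlaps one of the 10 members had more than 2 counts in a library.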

How the data were processed

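RNA of 16 libraries was read as single-end 50 bp TruSeq sequence. The authors aligned the reads to hg19 and deposited raw read counts per Ensembl gene. The submitters' processing notes name TopHat, HTSeq and DESeq, and versions, annotation release and strand setting are not given in the sources used here. Each file ends with 5 totals of reads outside genes, which were left out of tests and library sizes; reads with several alignments were 22.0% to 27.9% of all reads and the other 4 totals together 5.02% to 6.29%. Symbols came from GENCODE v44 on GRCh37, for 39260 of 54127 identifiers and 97.7% of counts. The 10 genes, the pathway lists and the rule for named genes were chosen with earlier results of these data known.

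Each line was tested with edgeR 4.0.16 (R 4.3.3), the quasi-likelihood test, TMM, filterByExpr and no block. The interaction and the untreated lines were tested in a 4-group fit of all 16 libraries. Adjusted p is Benjamini-Hochberg over all genes tested. SE is the log2 fold change divided by the square root of F. Levels per kilobase used the canonical transcript, or all exons joined for DDIT4. Named were all 10 genes, the strongest rise and fall of each list and line (passed, mean log2 CPM of at least 3, groups not overlapping), and the 3 genes most like VDAC1 and DDIT4 by Pearson's r. Groups came from the labels. p-values measure the spread between these 4 replicates, and no 2 libraries were identical. Counts of reads without molecular identifiers are not independent molecules. Scripts were tested on simulated data. Alternatives were DESeq2 1.42.0, other scalings, filters and thresholds, a replicate block and leaving out each library. STRADA, ACACA, TXNIP and PECAM1 were not matched to an identifier and are not analysed here. The values of 2 single genes of the lists are not reported here.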

Additional observations from a re-analysis of the deposited data

Results flagged for a closer look

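The response to itraconazole differed between the lines, by the interaction test of edgeR, for 6 of the 10 genes. The log2 interaction, as the SW948 change minus the HT55 change, was 0.49 for VDAC1, 0.54 for VDAC2, -0.54 for VDAC3, -0.27 for MTOR, -1.25 for RPTOR and 1.25 for RHEB. MTOR and VDAC2 are the ones that rest most on single libraries: their calls were lost in 10 and 6 of the 16 fits that left out 1 library.

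Of 40 groups of 4 libraries, 2 held a library far from the other 3 by Dixon's test, which chance alone would give in about 1 of 20 groups. PRKAA1 was high in HT55 DMSO replicate 4, at 99.7 CPM, and TSC1 was high in SW948 itraconazole replicate 4, at 51.5 CPM.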

How the results depend on the processing

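The replicate block, fitted as an alternative, gave 6 members changed in HT55, 7 in SW948, 5 with an interaction and 7 between the untreated lines, and 59 and 87 pathway genes in HT55 and SW948. The deviations of same-numbered libraries were weakly correlated (from -0.0249 to 0.116, of which 2 of 8 were over 0.1). The same-numbered library was the best match for HT55 replicate 3 and for SW948 replicates 3 and 4. Such low correlations cannot settle whether the numbers pair the libraries. The counts between the untreated lines, here and below, include PRKAA2, which entered that fit only through its HT55 libraries. Under the block the interaction of MTOR did not pass (-0.27, adjusted p = 0.0545) and that of TSC1 was 0.00266.

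A minimum log2 fold change of 1 left 0 members in HT55, where edgeR without it and DESeq2 each gave 6, 4 in SW948, 2 with an interaction, 3 between the untreated lines, and 5 and 29 pathway genes in HT55 and SW948. Of all genes tested, this minimum left 1169 of 12133 in HT55 and 4001 of 12505 in SW948. It left 2760 of 13249 with an interaction and 4394 of 13249 between the untreated lines. An adjusted p under 0.01 left 44 pathway genes in HT55. Leaving out 1 library gave 5 to 7 members in HT55, 6 to 8 in SW948, 4 to 7 with an interaction, 7 to 9 between the untreated lines, and 50 to 81 and 83 to 90 pathway genes. The 81 came without HT55 itraconazole replicate 3.

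Plain library totals turned PRKAA1 negative in HT55 (-0.0904), PRKAA1 (-0.13), MTOR (-0.25), TSC1 (-0.16) and DDIT4 (-0.0912) in SW948, and the interaction of PRKAA1 (-0.0436). The interaction of TSC1, near 0, turned positive with DESeq2 size factors (0.0225), at least 10 counts in every library (0.00298) and DESeq2 (0.0160), and ran from -0.0977 to 0.0299 without 1 library. Without 1 library RPTOR in HT55 ran from -0.0426 to 0.0246 and the interaction of PRKAA2 from -0.39 to 0.19. DDIT4 passed in SW948 with no filter on low counts (0.23, adjusted p = 0.00464) and in HT55 with plain library totals (-0.40, adjusted p = 0.0445). The cause was not tested.

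The calls of VDAC1, VDAC2 and VDAC3 in both lines, and of RHEB and RPTOR in SW948, held under all alternatives run, except that with the minimum log2 fold change of 1 the VDAC genes in HT55 and VDAC3 in SW948 did not pass. Depth limits PRKAA2 in SW948, where no library held over 12 counts.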
